A study of Mus musculus with 24 samples.

Results

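Dppa2, Dppa4, Tdh, Fbxo15, Utf1, L1td1 and Tcl1 are 7 genes known for their expression in mouse embryonic stem (ES) cells that do not belong to the core pluripotency circuit of Pou5f1, Sox2 and Nanog. They were chosen by name with earlier results of these data known, so their counts beside all genes are a description. All 7 have a record among the 14737 protein-coding gene records of the expression table. All 7 were also among the 13373 genes tested, which reached 1 FPKM in 3 libraries or more. FPKM counts fragments scaled by transcript length and by the size of the library, so levels of different genes can be compared on it.

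RNA of 129/Sv mouse ES cells was sequenced in 24 libraries, 3 in each of 8 groups. The groups are wild type and Carma3xpA/+, each at d0, d3, d6 and d10. At d0 both genotypes were undifferentiated cells grown on mouse embryonic fibroblast feeders in serum with leukaemia inhibitory factor, and on the other days both were embryoid bodies, aggregates formed in hanging drops under a cardiac differentiation protocol with ascorbic acid. Carma is a long noncoding RNA gene, and 3xpA by usual notation is a polyadenylation cassette, here on 1 allele. Carma itself was not analysed here, so the genotype labels had no check by the targeted gene. The submitters call the replicates biological, but the labels do not say whether they come from separate cultures or whether the Carma3xpA/+ cells are 1 clone, so a p-value here reflects only how these libraries spread, which may be technical. In bulk RNA, fewer cells of a type and less RNA per cell cannot be told apart.

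The 7 genes serve different parts of the ES cell programme. The DPPA2 and DPPA4 proteins bind each other and chromatin, and in mouse ES cells they keep promoters of developmental genes poised and activate the genes of 2-cell-like cells. UTF1 is a chromatin-bound protein, TDH starts the breakdown of threonine that feeds one-carbon metabolism in mouse ES cells, FBXO15 is an F-box protein of an SCF-type ubiquitin ligase, L1TD1 is an RNA-binding protein derived from a LINE-1 element, and TCL1 binds AKT kinases and raises their activity. As ES cells leave pluripotency in embryoid bodies, genes of this kind are known to be silenced, each at its own time.

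Summed FPKM per library lay between 245274 and 306848, and between 10667 and 11921 genes reached 1 FPKM. Read depth is unknown, because the values are deposited as FPKM. Over all genes tested, replicates of a group correlated at r between 0.9497 and 0.9941. Carma3xpA/+ d0 replicate 1 gave the lowest values, 0.950 and 0.955 with its replicates, and Carma3xpA/+ d10 replicates 1 and 2 correlated at 0.967, so results that change without one of them are given both ways. The labels call all samples embryonic stem cells. The summed level of 5 ES markers, Pou5f1, Sox2, Nanog, Zfp42 and Esrrb, was 752 to 1011 FPKM over the 6 libraries of d0, 572 to 656 over those of d3, 52.2 to 67.8 over those of d6 and 54.9 to 112 over those of d10, so at d6 and d10 these markers were low.

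All 7 genes lost most of their level by d6, but not at the same step. In wild type, Fbxo15 and Tcl1 were at 9.77% and 12.8% of their d0 level at d3, Tdh and Dppa2 at 29.7% and 37.6%, and Dppa4 at 68.1%, whereas L1td1 stood at 192% of it and only fell afterwards. By d6 each was at least 5-fold below d3 in wild type, and by d10 some had risen again, with Tdh rising most in wild type and Dppa2 most in Carma3xpA/+. Compared with wild type, the Carma3xpA/+ libraries had less Dppa2 and Fbxo15 at d0, without overlap, and L1td1 was also called lower, with overlapping groups and no call without Carma3xpA/+ d0 replicate 1 (-0.29, adjusted p = 0.247). A fit of the d0 libraries alone called none of these 3. From d3 on every one of the 7 that was called different was higher in Carma3xpA/+. Differences below are log2 differences of FPKM + 1 with their standard error (SE), n = 3 libraries a group. Calls are limma tests fitted to all 24 libraries with Benjamini-Hochberg adjusted p under 0.05 over all genes tested. The SE comes from that fit, so a gene has the same SE in every step and genotype difference. It does not show how far the groups compared spread. Consecutive steps share the libraries of the day between them, and each genotype difference shares its libraries with the steps.

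**Figure D1:**
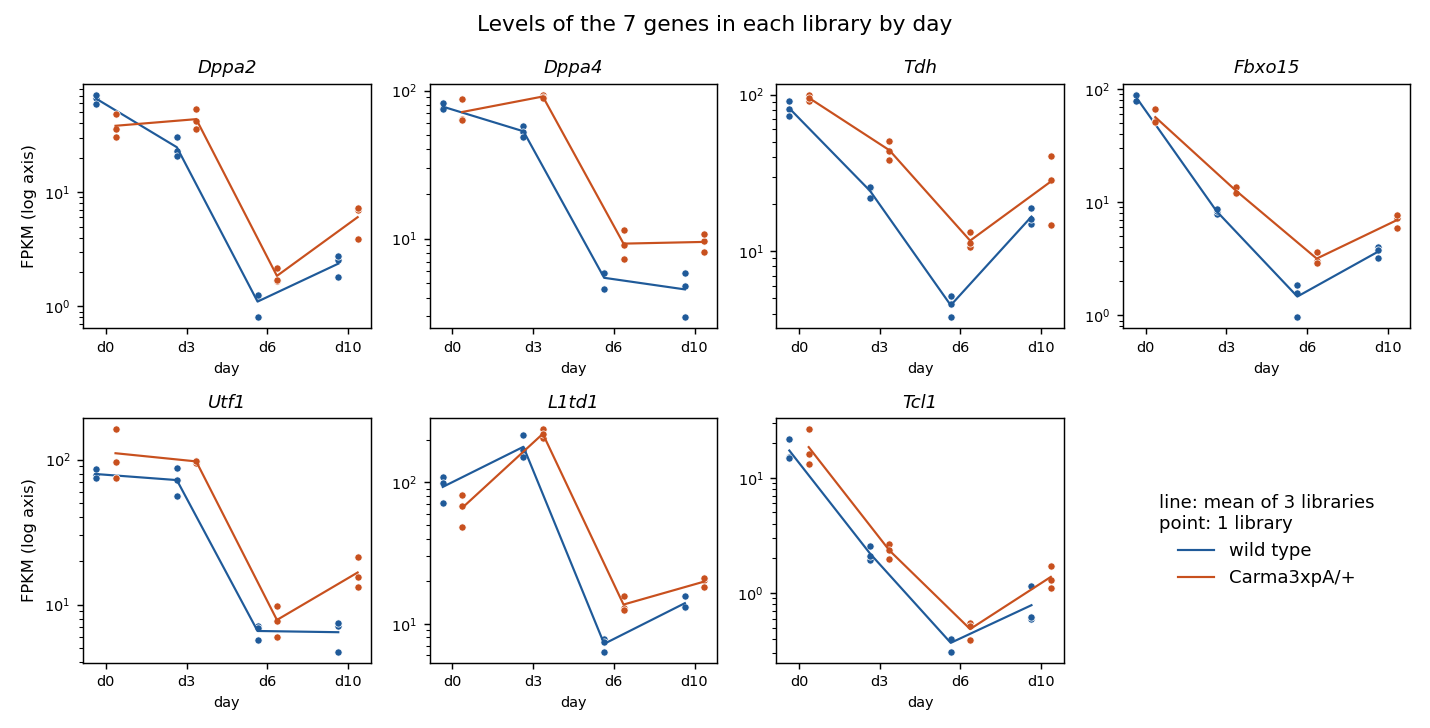
FPKM (log axis) of each of the 7 genes in each library by day, wild type in blue and Carma3xpA/+ in orange, with lines through the means of 3 libraries. All 7 genes were lower at d6 than at d3 in both genotypes, L1td1 was highest at d3, and on each day after d0 the means of all 7 genes were higher in Carma3xpA/+ than in wild type.

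From d0 to d3 in wild type, 5 of the 7 fell and 1 rose, where 27.7% of all genes tested fell, 27.7% rose and 55.5% were called in either direction. In Carma3xpA/+ 3 fell and 1 rose, against 24.9% and 27.5% of all genes and 52.4% called. From d3 to d6 all 7 fell in wild type, where 24.7% of all genes fell, 35.4% rose and 60.1% were called. All 7 fell at that step in Carma3xpA/+ too, against 25.5% falling, 37.8% rising and 63.3% called. Quantile normalization turned the split over all genes at this step, from 4733 higher and 3305 lower to 3524 and 4536 in wild type and from 5049 and 3412 to 3741 and 4579 in Carma3xpA/+, with medians moving from 0.096 to -0.073 and from 0.109 to -0.062, and all 7 fell under it as well. From d6 to d10, 4 rose and none fell in wild type, against 24.6% rising, 23.9% falling and 48.5% called, and 6 rose and none fell in Carma3xpA/+, against 26.2% rising, 29.1% falling and 55.3% called.

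**Figure D2:**
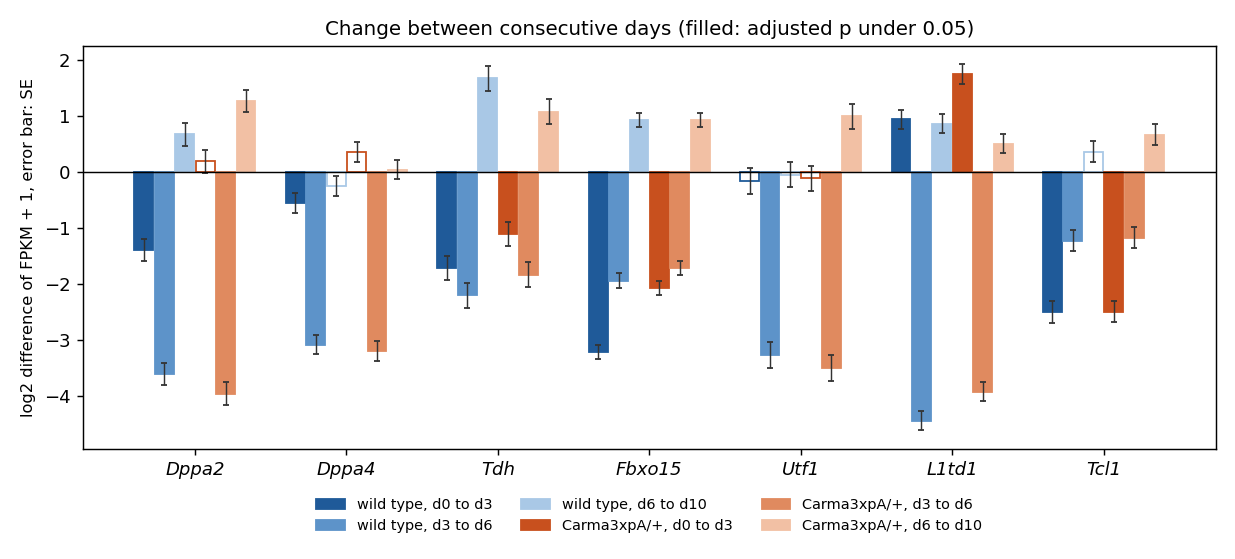
Log2 difference of FPKM + 1 between consecutive days for each gene, wild type in blue shades and Carma3xpA/+ in orange shades. Error bars are the SE of the fit to all 24 libraries, and filled bars mark adjusted p under 0.05. From d3 to d6 all 14 bars are below 0, and from d0 to d3 L1td1 has the 2 filled bars above 0.

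Between genotypes at d0, Dppa2, Fbxo15 and L1td1 were lower in Carma3xpA/+ and none of the 7 was higher, where 9.29% of all genes were lower, 9.53% higher and 18.8% called. A limma fit of the d0 libraries alone called none of the 7 and 4 genes of all. At d3, 4 were higher (Dppa2, Dppa4, Tdh and Fbxo15) and none lower, against 4.54% higher, 1.93% lower and 6.47% called over all genes. Leaving out 1 library at a time left 1 to 4 of them called at d3, the fewest without Carma3xpA/+ replicate 2, where Dppa4 alone among the 7 was called, and 2 without wild-type replicate 2 or 3 or Carma3xpA/+ replicate 1. Sample quality weights also called L1td1 (adjusted p = 0.0119) and Utf1 (adjusted p = 0.0223) higher at d3. Over all genes that setting called 3647 of 13373 at d3, against 865 in the main fit. At d6, 4 were higher (Dppa4, Tdh, Fbxo15 and L1td1) and none lower, against 4.3% higher, 3.48% lower and 7.78% called. At d10, 4 were higher (Dppa2, Dppa4, Fbxo15 and Utf1) and none lower, against 4.95% higher, 5.91% lower and 10.9% called. All 7 had an unadjusted p under 0.05 in limma at d10, as did 3273 of the 13373 genes tested. Median differences over the 7 were -0.14, 0.55, 0.66 and 0.78 from d0 to d10, against -0.03, -0.01, 0.00 and -0.03 over all genes tested. The ratio of means at d10 ranged from 1.42 for L1td1 to 2.58 for Utf1.

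**Figure D3:**
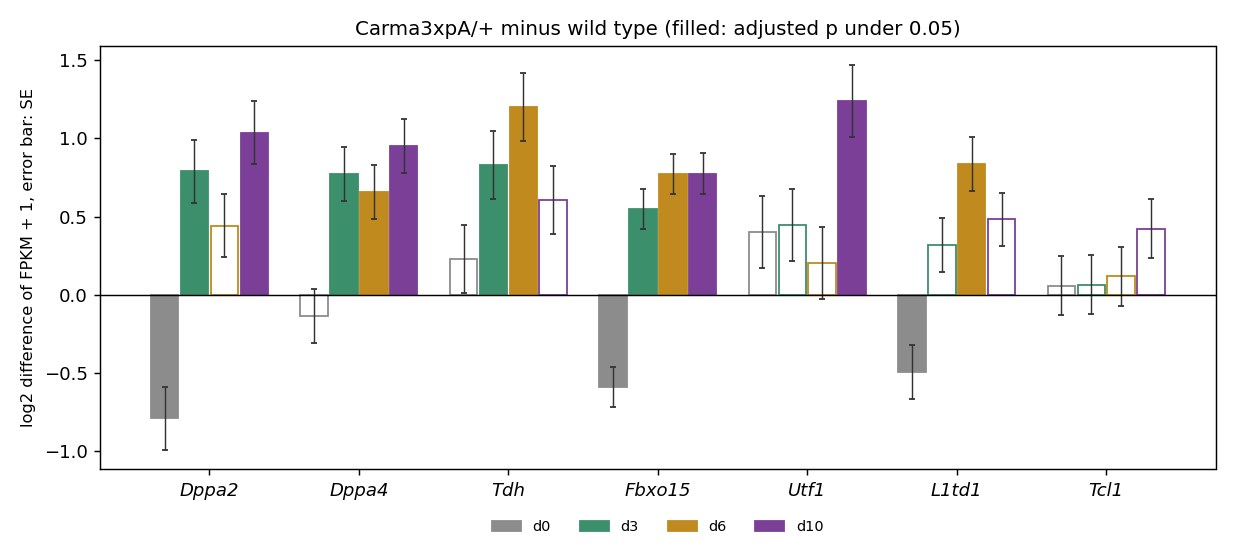
Log2 difference of FPKM + 1, Carma3xpA/+ minus wild type, for each gene on each day. Error bars are the SE of the fit to all 24 libraries, and filled bars mark adjusted p under 0.05. At d0 the filled bars are below 0 and on the other days above it, Tdh has its highest bar at d6, and Tcl1 has no filled bar.

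Whether the genotype difference itself changed from one day to the next was tested too. Between d0 and d3 it moved upward for 3 of the 7, Dppa2, Dppa4 and Fbxo15, and downward for none, against 2.07% of all genes upward, 1.56% downward and 3.63% called. Between d3 and d6 limma called none of the 7, with L1td1 the only one at an unadjusted p under 0.05, against 0.785% upward, 1.88% downward and 2.66% called over all genes. Between d6 and d10 it called none, with Utf1 the only one at an unadjusted p under 0.05, against 1.51% upward, 2.71% downward and 4.22% called (202 upward and 363 downward, or 338 and 363 with quantile normalization).

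Dppa2 (ENSMUSG00000072419.4) and Dppa4 (ENSMUSG00000058550.14) lie side by side on the plus strand of chromosome 16. On mm10, Dppa4 spans chr16:48283735-48294292 and Dppa2 chr16:48310477-48319723, with 16.184 kb between them. In wild type, Dppa2 was at 67.3, 71.1 and 58.8 FPKM at d0, at 30.4, 23.0 and 20.7 at d3, at 1.24, 1.26 and 0.811 at d6, and at 2.53, 2.76 and 1.81 at d10. In Carma3xpA/+, its levels were 48.1, 35.5 and 30.6 FPKM at d0, 53.1, 41.9 and 35.5 at d3, 1.67, 2.16 and 1.72 at d6, and 6.92, 3.88 and 7.30 at d10. The 2 genotypes overlapped on none of the days: all Carma3xpA/+ libraries were below wild type at d0 and above it at d3, d6 and d10.

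The step from d0 to d3 differed between genotypes for Dppa2. In wild type it fell, with a log2 difference of -1.39 (SE 0.20, adjusted p = 7.4e-06), while in Carma3xpA/+ the means were 38.0 and 43.5 FPKM, with a difference of 0.19 (SE 0.20, adjusted p = 0.447). Between d3 and d6 Dppa2 fell 22.4-fold in wild type and 23.5-fold in Carma3xpA/+, with log2 differences of -3.60 and -3.95. From d6 to d10 it rose 2.15-fold in wild type (adjusted p = 0.0091) and 3.26-fold in Carma3xpA/+ (adjusted p = 3.1e-05), to 3.60% and 15.9% of the level of the same genotype at d0.

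The genotype difference of Dppa2 was -0.79 at d0 (SE 0.20, adjusted p = 0.0103), 0.79 at d3 (adjusted p = 0.0186), 0.44 at d6 (adjusted p = 0.229) and 1.04 at d10 (adjusted p = 0.0016). Without Carma3xpA/+ d0 replicate 1, the difference at d0 was -0.97 (adjusted p = 0.0031). At d3 the call was lost without wild-type replicate 2 (adjusted p = 0.0817) or 3 (0.111), and without Carma3xpA/+ replicate 1 (0.133) or 2 (0.0526), with differences between 0.64 and 0.81. A fit of only the libraries of the day gave adjusted p = 0.137 at d0 and 0.0546 at d10. Between d0 and d3 the genotype difference itself moved by 1.58 (SE 0.28, adjusted p = 0.0039), which was called under every alternative, with adjusted p up to 0.0292.

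At d3 Dppa4 had more of its d0 level left than Dppa2 in wild type, 68.1% against 37.6%. In wild type it was at 76.7, 74.7 and 82.2 FPKM at d0, at 57.6, 52.6 and 48.9 at d3, at 5.86, 5.90 and 4.55 at d6, and at 5.86, 4.79 and 2.96 at d10. In Carma3xpA/+ the values were 87.7, 63.7 and 63.3 at d0, 93.6, 90.2 and 89.4 at d3, 7.24, 11.4 and 9.06 at d6, and 9.63, 8.06 and 10.8 at d10. The genotypes overlapped at d0 and were apart on the other days, with Carma3xpA/+ higher.

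Dppa4 fell from d0 to d3 in wild type (log2 difference -0.55, SE 0.17, adjusted p = 0.0112). In Carma3xpA/+ the same step had a difference of 0.36 (adjusted p = 0.0890), which became 0.51 and was called higher without d0 replicate 1 (adjusted p = 0.0217). Between d3 and d6 it fell 9.76-fold in wild type and 9.85-fold in Carma3xpA/+. It did not rise afterwards by the test: the differences from d6 to d10 were -0.25 (adjusted p = 0.254) and 0.05 (adjusted p = 0.840).

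The genotype difference of Dppa4 was -0.14 at d0 (adjusted p = 0.631), 0.77 at d3 (SE 0.17, adjusted p = 0.0082), 0.66 at d6 (adjusted p = 0.0224) and 0.95 at d10 (adjusted p = 0.00087). The d3 difference was called under every alternative except a fold limit of 1 on the log2 scale. The call at d6 was lost without wild-type replicate 3 (adjusted p = 0.105) or Carma3xpA/+ replicate 2 (0.129) or 3 (0.0661), and in the fit of that day's libraries alone (0.0594), as was the call at d10 in the fit of its own libraries (0.0572). Its move between d0 and d3, 0.91 (SE 0.25, adjusted p = 0.0453), was called in 6 of 21 alternatives. It was kept without Carma3xpA/+ d0 replicate 1 (1.06, adjusted p = 0.0094) and lost when any other of the 12 libraries was left out, with differences of 0.83 to 0.97 and adjusted p of 0.0504 to 0.114.

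The balance of the pair moved with the day. The ratio of Dppa2 to Dppa4 FPKM in wild type was 0.848 ± 0.121 at d0, 0.463 ± 0.057 at d3, 0.201 ± 0.020 at d6 and 0.539 ± 0.095 at d10 (SD, n = 3). In Carma3xpA/+ it was 0.529 ± 0.040, 0.476 ± 0.086, 0.203 ± 0.023 and 0.625 ± 0.126 on the same days (SD, n = 3). At d0 the 3 Carma3xpA/+ ratios, 0.484 to 0.556, lay below the 3 wild-type ratios, 0.716 to 0.952, and on the other days the ranges overlapped.

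The next tested gene downstream, Morc1, is 111.5 kb from the end of Dppa2. It is known for transposon silencing in the mouse male germ line. Its level was 20.6, 18.8 and 21.6 FPKM in wild type at d0 and 31.1, 30.3 and 29.5 in Carma3xpA/+, and at d3 it was 9.31, 9.20 and 8.997 against 18.0, 21.2 and 17.0. At d6 the values were 1.13, 0.673 and 0.911 against 1.78, 2.40 and 1.68 FPKM, and at d10 they were 1.91, 2.03 and 0.969 against 3.43, 2.88 and 3.77. Morc1 was higher in Carma3xpA/+ on all 4 days without overlap, by 0.55, 0.95, 0.63 and 0.75 (SE 0.14, adjusted p = 0.0099, 0.00022, 0.0072 and 0.0011). At d0 its direction was opposite to that of Dppa2. Nectin3, the nearest tested gene on the other side of the pair and 1785 kb from Dppa4, was not called between genotypes on any day.

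**Figure D4:**
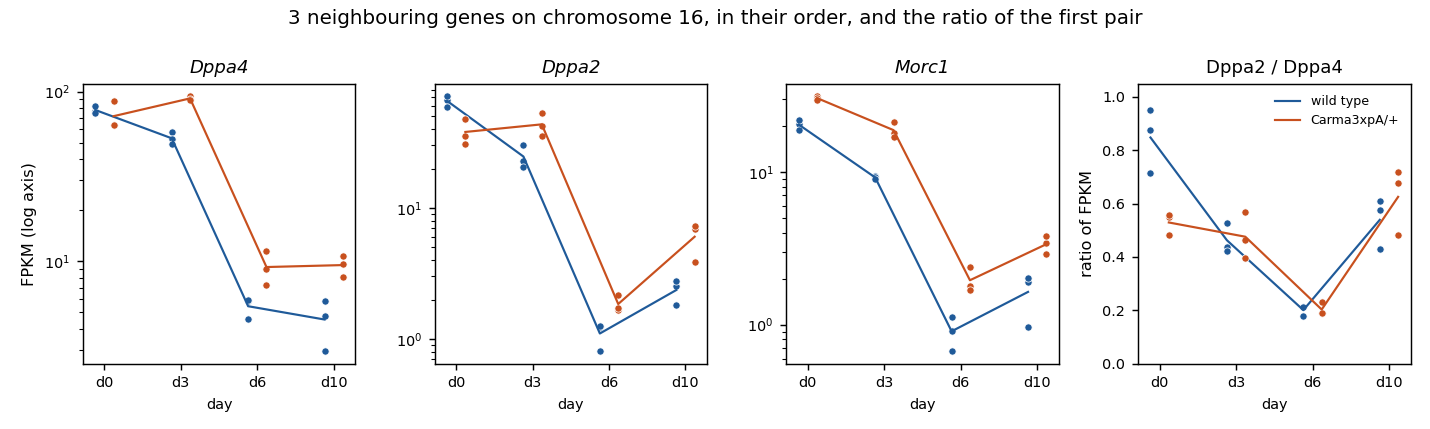
FPKM (log axis) of Dppa4, Dppa2 and Morc1, and the ratio of Dppa2 to Dppa4 FPKM (linear axis), in each library by day, with lines through the means of 3 libraries. At d0 Dppa2 was lower and Morc1 higher in Carma3xpA/+, the ratio fell to 0.201 and 0.203 at d6 in wild type and Carma3xpA/+, and from d3 on all 3 genes had higher means in Carma3xpA/+.

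Of the genes of 2-cell-like cells that DPPA2 and DPPA4 are known to activate, 14 were tested. At d0 13 of them were lower in Carma3xpA/+ and none higher, where 9.29% of all genes were lower and 9.53% higher. Their median difference was -1.26, against -0.03 over all genes tested. Zscan4e, of a zinc finger family that marks 2-cell-like cells, was at 88.7, 86.8 and 86.9 FPKM in wild type and at 36.6, 15.0 and 9.47 in Carma3xpA/+ (log2 difference -2.26, SE 0.27, adjusted p = 2.7e-05). Zscan4b, Zscan4f and Zscan4c were lower by 2.17, 1.70 and 1.66 on the log2 scale, and Carma3xpA/+ replicate 1 was the highest of its group for Zscan4f, at 92.6 FPKM against 24.6 and 20.9. Zscan4 and Usp17l genes are near-identical copies, so the split of reads among them is uncertain. In alternatives chosen after seeing the data, all 14 were lower without that replicate, and none was called in the fit of the d0 libraries alone. In wild type all 14 fell from d0 to d3 (median -3.42), where 27.7% of all genes fell. All 14 fell at that step in Carma3xpA/+ too (median -1.94), where 24.9% of all genes fell. At d3, d6 and d10, after this fall in both genotypes, limma called none of the 14 between genotypes. None had an unadjusted p under 0.05, and the median difference at d3 was -0.01. Over all genes 6.47%, 7.78% and 10.9% were called on these days.

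Utf1 (ENSMUSG00000047751.9) is a short gene on the plus strand of chromosome 7, at chr7:139943789-139945112 on mm10. In wild type it was at 78.1, 74.8 and 85.6 FPKM at d0, at 88.2, 72.1 and 56.4 at d3, at 7.12, 6.88 and 5.72 at d6, and at 7.09, 7.51 and 4.74 at d10. In Carma3xpA/+ the levels were 161, 95.6 and 75.01 FPKM at d0, 98.5, 95.4 and 97.6 at d3, 9.81, 7.74 and 5.95 at d6, and 15.4, 13.2 and 21.3 at d10. The genotypes overlapped at d0 and d6, with replicate 1 of Carma3xpA/+ far above all other d0 libraries, and were apart at d3 and d10.

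Utf1 was the only one of the 7 not called between d0 and d3 in wild type. Its difference was -0.16 there (SE 0.23, adjusted p = 0.596) and -0.11 in Carma3xpA/+ (adjusted p = 0.718), or 0.20 in Carma3xpA/+ without d0 replicate 1 (adjusted p = 0.455). From d3 to d6 it fell 10.99-fold in wild type and 12.4-fold in Carma3xpA/+. From d6 to d10 it was at 6.57 and 6.45 FPKM on average in wild type (adjusted p = 0.903) and rose 2.12-fold in Carma3xpA/+ (log2 difference 1.00, adjusted p = 0.0012). At d10 the genotype difference was 1.24 (SE 0.23, adjusted p = 0.0010), or 2.58-fold, and it was called under every alternative. On the other days it was 0.40, 0.45 and 0.20 (adjusted p = 0.235, 0.323 and 0.718). The test of its change from d6 to d10 gave 1.04 (SE 0.33, adjusted p = 0.0834), with calls in 4 of 22 alternatives, among them that without Carma3xpA/+ d10 replicate 2 (1.18, adjusted p = 0.0464) and that without d0 replicate 1 (1.04, adjusted p = 0.0192).

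Promoters of Utf1, L1td1 and Tcl1 are in the RefSeq promoter table used here, 3 of the 7 genes. They are shown because the others of the 7 have no entry there. The 3 genes, like all 7, fell from d3 to d6, and they differed in their first step. Any link of the promoters to these changes was not tested. Each window runs 5′ to 3′ from 250 bases before to 50 after the RefSeq start of the gene on GRCm38.p6, which can differ from the start of the expression record, and CpG dinucleotides are in capitals.
Utf1: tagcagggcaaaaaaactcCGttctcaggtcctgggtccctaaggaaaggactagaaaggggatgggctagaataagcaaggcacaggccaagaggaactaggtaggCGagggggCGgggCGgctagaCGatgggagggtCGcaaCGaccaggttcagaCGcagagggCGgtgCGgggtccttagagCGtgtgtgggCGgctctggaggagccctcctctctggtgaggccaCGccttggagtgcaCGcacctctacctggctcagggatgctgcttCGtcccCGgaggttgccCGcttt
L1td1: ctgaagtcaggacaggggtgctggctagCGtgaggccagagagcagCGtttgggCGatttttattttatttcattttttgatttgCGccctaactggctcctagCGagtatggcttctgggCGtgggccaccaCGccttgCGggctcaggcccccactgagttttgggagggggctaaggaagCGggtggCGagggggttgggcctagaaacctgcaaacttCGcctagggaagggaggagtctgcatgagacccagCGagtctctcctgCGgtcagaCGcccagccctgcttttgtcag
Tcl1: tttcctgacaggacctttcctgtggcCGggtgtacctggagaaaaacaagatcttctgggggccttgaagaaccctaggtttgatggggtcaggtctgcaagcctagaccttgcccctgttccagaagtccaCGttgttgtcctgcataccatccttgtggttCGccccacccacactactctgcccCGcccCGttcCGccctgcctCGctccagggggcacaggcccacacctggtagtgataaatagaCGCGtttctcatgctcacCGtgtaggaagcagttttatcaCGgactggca
The windows lie at chr7:139943606-139943905 on the plus strand, chr4:98726504-98726803 on the plus strand and chr12:105222688-105222987 on the minus strand. They hold 17, 14 and 11 CpG, against a median of 7 and quartiles of 3 and 20 over 32851 promoters of this length. The GC box GGGCGG, searched on both strands like all motifs here, was found in 35.66% of those promoters. Utf1 has 4 matches, of which the first pair share a base, Tcl1 has 2 on the opposite strand, and L1td1 has none. The octamer ATGCAAAT (1.74% of promoters), the SOX motif CATTGT (12.57%), the ESRRB motif TCAAGGTCA (0.42%), the TATA box TATAAA (13.62%) and the E2F motif TTTCGCGC (0.32%) had no match in the 3 windows.

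Tdh (ENSMUSG00000021953.14) is on the minus strand of chromosome 14, at chr14:63492347-63509092 on mm10. Wild-type libraries had it at 81.1, 90.6 and 73.4 FPKM at d0, at 25.4, 25.7 and 21.8 at d3, at 3.82, 5.16 and 4.59 at d6, and at 15.0, 16.1 and 18.8 at d10. In Carma3xpA/+ its levels were 99.7, 91.1 and 95.4 FPKM at d0, 43.8, 50.6 and 38.0 at d3, 10.6, 13.3 and 11.2 at d6, and 14.7, 40.5 and 28.3 at d10. Every Carma3xpA/+ library was above every wild-type library at d0, d3 and d6, and at d10 the groups overlapped because replicate 1 of Carma3xpA/+ was at the low end.

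Tdh fell at both early steps in both genotypes. From d0 to d3 it fell 3.36-fold in wild type and 2.16-fold in Carma3xpA/+, and from d3 to d6 it fell 5.37-fold and 3.77-fold. It then rose 3.68-fold in wild type (log2 difference 1.68, SE 0.22, adjusted p = 2.7e-06), the largest rise of the 7 genes there from d6 to d10, and 2.38-fold in Carma3xpA/+ (1.08, adjusted p = 0.00034), reaching 20.4% and 29.2% of the d0 level. The genotype difference was 0.23 at d0 (adjusted p = 0.503), 0.83 at d3 (adjusted p = 0.0224), 1.202 at d6 (SE 0.22, adjusted p = 0.0014) and 0.61 at d10 (adjusted p = 0.0813). At d6 this was a 2.58-fold difference, called under every alternative. The d3 call was lost without wild-type replicate 1 (0.0515), 2 (0.0578) or 3 (0.107) or Carma3xpA/+ replicate 1 (0.0750) or 2 (0.110), given as adjusted p. At d10 leaving out Carma3xpA/+ replicate 1 gave 0.99 (adjusted p = 0.00018) and leaving out replicate 2 gave 0.29 (adjusted p = 0.443). Without that replicate 2 the genotype difference moved by -0.91 between d6 and d10 and was called (adjusted p = 0.0363), where with all libraries it moved by -0.59 (adjusted p = 0.346).

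Among 23 tested genes of threonine, glycine and one-carbon metabolism, 11 rose and 8 fell in wild type from d0 to d3, and 7 rose and 12 fell from d3 to d6, with medians of 0.28 and -0.27. Over all genes tested 27.7% rose and 27.7% fell at the first of these steps, and 35.4% and 24.7% at the next. Between genotypes, 6 were higher and 4 lower in Carma3xpA/+ at d0, 2 and 1 at d3, 3 and 0 at d6, and 2 and 2 at d10, where 18.8%, 6.47%, 7.78% and 10.9% of all genes were called from d0 to d10. Gcat, the enzyme that takes the product of TDH to glycine, was at 21.4 FPKM in Carma3xpA/+ against 13.5 in wild type at d0 (log2 difference 0.58, adjusted p = 0.0451), and at 15.0 against 25.4 at d3 (-0.72, adjusted p = 0.030). Gldc, the decarboxylase of the glycine cleavage system, was at 36.9, 39.8 and 37.7 FPKM in Carma3xpA/+ at d6 and at 20.8, 19.8 and 19.3 in wild type, the day on which the genotypes differed most for Tdh (0.90, adjusted p = 0.00083).

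Fbxo15 (ENSMUSG00000034391.11) is on the plus strand of chromosome 18, at chr18:84934782-84981472 on mm10. Its wild-type levels were 88.9, 88.3 and 78.1 FPKM at d0, 7.90, 8.34 and 8.70 at d3, 1.84, 0.973 and 1.59 at d6, and 3.99, 3.80 and 3.19 at d10. In Carma3xpA/+ the levels were 66.0, 51.7 and 51.5 FPKM at d0, 12.04, 13.7 and 12.1 at d3, 3.01, 3.62 and 2.90 at d6, and 5.98, 7.23 and 7.75 at d10. The genotypes were apart on every day, with Carma3xpA/+ lower at d0 and higher afterwards.

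From d0 to d3 Fbxo15 had the largest drop of the 7 genes in wild type. It fell 10.2-fold in wild type (log2 difference -3.21, SE 0.13, adjusted p = 2.3e-13) and 4.47-fold in Carma3xpA/+ (-2.07, adjusted p = 1.6e-10), and then 5.66-fold and 3.98-fold to d6. It rose 2.49-fold and 2.20-fold from d6 to d10. The genotype difference was -0.59 at d0 (SE 0.13, adjusted p = 0.0038), 0.55 at d3 (adjusted p = 0.0111), 0.77 at d6 (adjusted p = 0.00069) and 0.78 at d10 (adjusted p = 0.00035). Without Carma3xpA/+ d0 replicate 1 the d0 difference was -0.71 (adjusted p = 0.00086), and in a fit of the d0 libraries alone its adjusted p was 0.130. The d3 call was lost without Carma3xpA/+ replicate 2 (0.49, adjusted p = 0.0619). The genotype difference moved by 1.14 between d0 and d3 (SE 0.18, adjusted p = 0.0018), called under every alternative.

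Timm21, a subunit gene of a mitochondrial import machinery, lies within the span of Fbxo15 on the opposite strand, at chr18:84947294-84951524. The library kit marks the strand, but whether the counting used it is not given in the sources used here, so reads of the pair may be shared. The levels moved apart: Timm21 rose from 10.2 to 43.2 FPKM in wild type from d0 to d3 (log2 difference 1.99, adjusted p = 3.7e-08) and was not called between genotypes on any day. Of 26 tested genes of SCF ligases, 13 rose and 6 fell in wild type from d0 to d3 (median 0.21), where 27.7% of all genes rose and 27.7% fell. Between genotypes at most 6 of the 26 were called on 1 day (4 higher and 2 lower at d0, where 18.8% of all genes were called). Fbxo9, another F-box gene, was lower in Carma3xpA/+ at d3, d6 and d10 (2.61 against 4.96, 2.59 against 4.85 and 2.73 against 5.74 FPKM).

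L1td1 (ENSMUSG00000087166.9) is on the plus strand of chromosome 4, at chr4:98726734-98738480 on mm10. In wild type it was at 108, 98.9 and 70.9 FPKM at d0, at 216, 169 and 150 at d3, at 7.79, 6.37 and 7.49 at d6, and at 13.0, 13.1 and 15.8 at d10. In Carma3xpA/+ it was at 48.3, 81.7 and 67.6 FPKM at d0, at 236, 205 and 219 at d3, at 12.8, 15.6 and 12.6 at d6, and at 20.3, 18.1 and 21.2 at d10. The genotypes overlapped at d0 and d3, and at d6 and d10 all Carma3xpA/+ libraries were higher.

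L1td1 rose from d0 to d3 in both genotypes, as none of the other 6 did with all libraries, 1.92-fold in wild type (log2 difference 0.94, SE 0.17, adjusted p = 0.00010) and 3.34-fold in Carma3xpA/+ (1.76, adjusted p = 7.0e-08). Of the other 6, Dppa4 was called higher in Carma3xpA/+ under 2 of 15 alternatives. The rise of L1td1 in Carma3xpA/+ was 1.55 on the log2 scale without d0 replicate 1, the lowest library. From d3 to d6 it fell 24.7-fold in wild type and 16.1-fold in Carma3xpA/+, the largest drop of the 7 at this step in wild type. From d6 to d10 it rose 1.94-fold in wild type (adjusted p = 0.00035) and 1.45-fold in Carma3xpA/+ (adjusted p = 0.0162), and the latter call was lost without Carma3xpA/+ d6 replicate 1 (0.0543) or 3 (0.0587) or d10 replicate 3 (0.0564). The genotype difference was 0.83 at d6 (SE 0.17, adjusted p = 0.0039), called under every alternative except the fold limit, 0.32 at d3 (adjusted p = 0.357) and 0.48 at d10 (adjusted p = 0.0801). The d10 difference, also 0.48, was called without Carma3xpA/+ d0 replicate 1 (adjusted p = 0.0282).

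At d0 the genotype difference of L1td1 was -0.50 (SE 0.17, adjusted p = 0.0490), and it was called in 7 of 15 alternatives. It was lost without Carma3xpA/+ replicate 1 (-0.29, adjusted p = 0.247) or 3 (-0.53, adjusted p = 0.0649) and without wild-type replicate 1 (-0.37, adjusted p = 0.210) or 2 (-0.44, adjusted p = 0.154). Its change from d0 to d3 was 0.81 (SE 0.24, adjusted p = 0.0686), and was called without wild-type d0 replicate 3 (0.99, adjusted p = 0.0243), wild-type d3 replicate 1 (0.96, adjusted p = 0.0395) or Carma3xpA/+ d0 replicate 2 (0.98, adjusted p = 0.0156). Among 16 tested genes of RNA-binding and LINE-1 factors, 5 rose and 6 fell in wild type from d0 to d3, against 27.7% of all genes in each direction. Between genotypes 1 was higher and 1 lower at d0, where 18.8% of all genes were called, and 1 was higher at d10, where 10.9% were. The 1 at d10 was Lin28a, whose protein binds L1TD1 in human ES cells, at 49.5 FPKM in Carma3xpA/+ and 35.9 in wild type (log2 difference 0.45, adjusted p = 0.0096). At d3 and d6 limma called none of them, with 2 at an unadjusted p under 0.05 on each day.

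Tcl1 (ENSMUSG00000041359.14) is on the minus strand of chromosome 12, at chr12:105216750-105222793 on mm10, and had the lowest level of the 7 in all 8 groups. In wild type it was at 15.2, 14.7 and 21.8 FPKM at d0, at 1.93, 2.57 and 2.10 at d3, at 0.401, 0.399 and 0.311 at d6, and at 1.14, 0.596 and 0.617 at d10. In Carma3xpA/+ it was at 26.2, 13.0 and 16.1 FPKM at d0, at 2.69, 2.37 and 1.98 at d3, at 0.391, 0.551 and 0.519 at d6, and at 1.11, 1.31 and 1.73 at d10. The 2 genotypes overlapped on every day, and below 1 FPKM the log2 scale with 1 added understates fold changes.

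Tcl1 fell 7.83-fold in wild type and 7.87-fold in Carma3xpA/+ from d0 to d3 (log2 differences -2.49 in both, SE 0.19, adjusted p = 1.5e-09 and 2.5e-09), and then 5.95-fold and 4.81-fold to d6. It rose from d6 to d10 in Carma3xpA/+ (0.67, adjusted p = 0.0053), and in wild type the difference was 0.37 (adjusted p = 0.115), called without Carma3xpA/+ d0 replicate 1 (adjusted p = 0.0373). No difference of Tcl1 between genotypes was called with all libraries weighted alike: they were 0.06, 0.06, 0.12 and 0.42 from d0 to d10 (adjusted p = 0.879, 0.948, 0.824 and 0.174). With sample quality weights that at d10 was 0.60 (adjusted p = 0.00018), a setting that called 6247 of all 13373 genes at d10. At d0 the sign turned without Carma3xpA/+ replicate 1 (-0.22). Of 21 tested genes of PI3K and AKT signalling, 6 rose and 9 fell in wild type from d0 to d3, against 27.7% of all genes in each direction. Eras, an ES cell Ras that activates PI3K in mouse, was at 33.9, 15.9 and 16.6 FPKM in Carma3xpA/+ at d0 against 10.1, 8.35 and 12.1 in wild type, and at 4.40, 5.46 and 8.11 against 2.12, 2.03 and 1.14 at d10 (log2 differences 0.98 and 1.32, adjusted p = 0.0055 and 0.00044). Between genotypes 2 genes of this list were higher and 3 lower at d0, 1 was higher at d3, none was called by limma at d6 (1 at an unadjusted p under 0.05), and 1 was higher and 1 lower at d10, against 18.8%, 6.47%, 7.78% and 10.9% of all genes called from d0 to d10.

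Other genes of the ES cell state were counted beside the 7. Of 26 other ES-associated genes, 8 were higher and none lower in Carma3xpA/+ at d3, 6 and none at d6, and 9 and 2 at d10, with 2 higher and 5 lower at d0. Over all genes 9.53% were higher and 9.29% lower at d0, 4.54% and 1.93% at d3, 4.3% and 3.48% at d6, and 4.95% and 5.91% at d10. Tex19.1, a gene of ES cells and the germ line, was at 25.5, 25.7 and 23.0 FPKM in Carma3xpA/+ at d3 against 4.89, 5.25 and 4.68 in wild type (log2 difference 2.11, adjusted p = 1.0e-09). Dppa3, a maternal factor that protects DNA methylation, was higher at all 4 days, by 0.83, 1.29, 1.00 and 1.37 from d0 to d10. Of 14 core and naive pluripotency factors, 2 were lower at d0, 2 were higher at d3, 3 at d6 and 5 at d10, among the last Nanog (18.2, 11.5 and 19.4 against 8.28, 7.96 and 5.02 FPKM) and Pou5f1 (38.6, 29.1 and 48.6 against 25.3, 20.6 and 11.9 FPKM). The others called higher at d10 were Klf2, Prdm14 and Zfp42. Of the 9 not called, 5 had negative differences, among them Sox2 (36.0, 20.1 and 28.3 FPKM in Carma3xpA/+ against 41.3, 39.1 and 31.3, difference -0.42, adjusted p = 0.0991). Klf5 (6.74, 8.60 and 8.18 against 10.9, 10.5 and 10.1 FPKM, -0.38, adjusted p = 0.0539) and Nr5a2 (0.751, 0.772 and 0.877 against 1.051, 1.06 and 1.48 FPKM, -0.28, adjusted p = 0.285) were below wild type without overlap, as was Tfcp2l1 (-0.39, adjusted p = 0.0823). These 4 and Prdm14 are named here after their values were seen. In a fit of the d10 libraries alone, an alternative chosen after seeing the data, 1 of these 14 was called higher.

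Markers of other cells moved with the genotype on the same days, and their part in the results was not tested. The counts below stand beside 9.53% of all genes higher and 9.29% lower in Carma3xpA/+ at d0. These shares were 4.54% and 1.93% at d3, 4.3% and 3.48% at d6, and 4.95% and 5.91% at d10. The summed level of 10 feeder and fibroblast markers was 654 to 826 FPKM at d10 in wild type and 302 to 415 in Carma3xpA/+, with 5 of 10 lower, and 94.3 to 245 against 87.8 to 114 at d6, also with 5 lower. At d0 it was 23.4 to 27.5 against 20.5 to 38.5. The sum of 10 cardiomyocyte markers was 475 to 703 FPKM at d10 in wild type and 1192 to 1769 in Carma3xpA/+, with 8 of 10 higher, and 710 to 929 against 611 to 735 at d6, with 3 lower. The sum of 9 germ cell markers, 1 of them Dppa3 that the ES list also holds, was higher in Carma3xpA/+ without overlap on every day, at 61.7 to 70.8 against 38.0 to 38.8 at d3 and 19.0 to 24.3 against 13.4 to 14.1 at d10. Of the 8 of them tested, 1, 2 and 3 were called higher at d3, d6 and d10 and none lower, and at d0 1 was higher and 1 lower. Of 7 endoderm markers, whose sum at d6 was 478 to 595 FPKM in Carma3xpA/+ and 180 to 219 in wild type, 3 were higher at d6. Of 7 blood markers 3 were lower at d6 and 3 at d10, with sums of 1480 to 2361 against 2208 to 4432 FPKM and 208 to 344 against 327 to 464. Of 7 endothelium markers 1 was lower at d6 and 4 were higher at d10 (28.9 to 49.2 against 22.6 to 28.8 FPKM), and 2 were higher at d3. Of 5 tested neural markers 2 were lower at d6 and 3 at d10. The sums are over the 6 neural markers with a record, tested or not. They were 5.06 to 8.55 FPKM in Carma3xpA/+ against 10.5 to 12.6 in wild type at d6, and 24.7 to 52.0 against 53.6 to 72.5 at d10. Of 5 tested trophoblast markers 1 was higher at d0 and 1 at d6. At d3 limma called none of them, with 1 at an unadjusted p under 0.05. Their sum was 63.3 to 79.1 FPKM in Carma3xpA/+ against 95.9 to 110 in wild type at d3. At d6 it was 14.4 to 18.5 against 10.2 to 12.3. None of the 9 germ cell markers, nor of the 10 feeder markers at d0, was listed at 0 in all 3 libraries of a group.

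The genes most like each of the 7 in pattern were ranked by Pearson's r over the 8 group means of log2(FPKM + 1), among 9072 genes whose mean reached 5 FPKM in 1 group or more. They were Dbr1, Snupn and Mtmr7 for Dppa2 (r of 0.995 to 0.993), Zfp980, Rex2 and Ddx27 for Dppa4 (0.994 to 0.992), and Lap3, Rangap1 and Aldh2 for Tdh (0.985 to 0.980). For Fbxo15 they were Dazl, Nr0b1 and AU018091 (0.995 to 0.989), for Utf1 Pla2g1b, Pou5f1 and Gdf3 (0.997 to 0.991), for L1td1 Xrcc5, Alox15 and Cnbp (0.994 to 0.987) and for Tcl1 1700029P11Rik, Stac2 and Nr0b1 (0.995 to 0.994). Among the 7, Utf1 and Dppa4 were most alike (0.985), followed by Fbxo15 and Tcl1 (0.983), and L1td1 and Tcl1 least (0.569). All 8 points share the same libraries for every gene, so these values are a description.

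The 7 genes have 15 transcript records. Dppa2, Tdh and Utf1 have 1 each. Dppa4 has 2, of which Dppa4-202 was higher than Dppa4-201 in every group mean (60.8 against 19.0 FPKM in wild type at d0, 83.9 against 7.98 in Carma3xpA/+ at d3). L1td1-204 was the highest of the 3 L1td1 records in every group mean, with 170 FPKM in wild type at d3. Of the 3 Fbxo15 records, Fbxo15-201 ranged from 1.31 to 13.9 FPKM among the wild-type libraries at d3 although the gene ranged only from 7.90 to 8.70, so the split between the Fbxo15 records is uncertain. Of the 4 Tcl1 records, Tcl1-202 was listed at 0 in all 3 wild-type libraries at d10 and in none of the 3 Carma3xpA/+ libraries, at a gene level near 1 FPKM. At d6 this record was at 0 in all 3 Carma3xpA/+ libraries and in 2 of the 3 wild-type libraries.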

How the data were processed

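RNA from 24 libraries was enriched for polyadenylated molecules and sequenced from a stranded kit, per the labels' protocols. FastQC, cutadapt, HISAT2, StringTie and the build mm10 are named in the submitters' processing notes, with no versions, and the sources used here do not say which filters or strand setting were applied. The gene and transcript values are FPKM as deposited by the authors. Depth cannot be recovered from them: among 364 genes with values under 0.2 FPKM, 6 shared the commonest ratio between libraries, so no step of 1 read was found, and no counting interval is given.

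Libraries were grouped by genotype and day from the labels. log2(FPKM + 1) of the 13373 genes that reached 1 FPKM in 3 libraries or more entered a limma 3.58.1 fit (R 4.3.3) with 1 mean for each of 8 groups (16 residual degrees of freedom), a trended prior and 13 contrasts. P-values were adjusted by Benjamini and Hochberg over all genes in each contrast, with calls at adjusted p under 0.05, two-sided. A fold is the ratio of mean FPKM, and log2 differences include the pseudocount of 1, which understates changes of low genes. The fit was tested on simulated data with known differences, for the genotype difference at d3 only. The simulated noise of a gene was normal with the same spread in every group. Groups of unequal spread, or a library apart from its replicates, were therefore not covered. The 7 genes, the gene lists and the marker lists were chosen with earlier results of these data known. Named beside the 7 are, by rule, the nearest tested gene on each side, the 3 genes most like each in pattern, and some of up to 4 called genes with the largest difference from each list and contrast. Alternatives were the pseudocount, the filter, scaling, the libraries fitted, a replicate block, sample quality weights (arrayWeights, gene by gene), a fold limit, and leaving out each library. Promoters came from RefSeq (GRCm38.p6). No protein sequences were used here. Figures were drawn with matplotlib 3.10.9.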

Additional observations from a re-analysis of the deposited data

Results flagged for a closer look

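In 3 cases the genotype difference itself changed between d0 and d3, by the interaction test of limma over all genes, n = 3 libraries a group. For Dppa2 the log2 difference Carma3xpA/+ minus wild type went from -0.79 to 0.79, a change of 1.58 (SE 0.28, adjusted p = 0.0039). For Fbxo15 it went from -0.59 to 0.55, a change of 1.14 (SE 0.18, adjusted p = 0.0018), and both genes were below wild type in 3 of 3 Carma3xpA/+ libraries at d0 and above it in 3 of 3 at d3. For Dppa4 it went from -0.14 to 0.77, a change of 0.91 (SE 0.25, adjusted p = 0.0453), called in 6 of 21 alternatives. Carma3xpA/+ d0 replicate 1, which correlated least with its replicates, enters all 3, and without it the changes were 1.76, 1.26 and 1.06 (adjusted p = 0.00044, 1.0e-04 and 0.0094).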

How the results depend on the processing

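Of 1561 values of the 91 member results under alternatives, 1432 kept direction and side of the threshold, 64 lost the call, 26 gained it and 39, none of them called, changed sign; where not said otherwise the cause was not tested. A fit of only the groups compared, which has fewer libraries, called 0 of the 7 between genotypes at d0 and 2 at d10. For the gene lists, in alternatives chosen after seeing the data, it called 0 of the 14 genes of 2-cell-like cells at d0 and 1 core factor at d10. Over all genes it called 4 instead of 2516 at d0, 2271 instead of 865 at d3 and 703 instead of 1453 at d10. Requiring a log2 difference of at least 1 left 0, 0, 1 and 2 of the 7 between genotypes from d0 to d10, and 1 and 2 at the d6 to d10 step in wild type and Carma3xpA/+. Sample quality weights called 7 at d10, with 5 and 2 of the 7 for the genotype difference moving between d0 and d3 and between d6 and d10, and over all genes 4093, 3647, 2022 and 6247 from d0 to d10. Quantile normalization, and leaving out Carma3xpA/+ d0 replicate 1 where it enters no contrast, each called 1 between d6 and d10. A filter of 5 FPKM left 573, 551 and 759 genes called at d3, d6 and d10, with fewer genes tested. Where the genotype difference moved, 485, 356 and 565 genes were called at the 3 steps, against 171 (d0 to d3) and 1117 (d3 to d6) in the groups compared, 2855, 1621 and 2798 with weights, 137 (d3 to d6) and 190 (d6 to d10) with the filter, and 235 (d6 to d10) with a pseudocount of 0.1. The fold limit left 144, 91, 134 and 160 genes between genotypes, 108, 132 and 214 where that difference moved, and 1678, 2293 and 1350 at the wild-type steps and 1454, 2532 and 1371 at those of Carma3xpA/+.

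Leaving out 1 library at a time gave 2 to 3, 1 to 4, 3 to 4 and 4 to 5 of the 7 called between genotypes from d0 to d10, and 2 to 3, 0 to 0 and 0 to 2 for the genotype difference moving at the 3 steps. The steps gave 6 to 6, 7 to 7 and 4 to 4 in wild type and 4 to 5, 7 to 7 and 5 to 6 in Carma3xpA/+. Signs changed, always without a call, as follows. With 1 library left out, Dppa4 ranged from -0.10 to 0.20 in Carma3xpA/+ from d6 to d10 and, for its genotype difference moving between d3 and d6, from -0.26 to 0.033. That of Fbxo15 between d6 and d10 ranged from -0.11 to 0.16, and was -0.19 with a pseudocount of 0.1. Tcl1 between genotypes ranged from -0.22 to 0.26 at d0 and from -0.012 to 0.14 at d3, and was -0.019 and -0.0093 with sample quality weights. Its genotype difference moved by -0.20 to 0.28 between d0 and d3 (-0.027 with median-of-ratios scaling) and by -0.027 to 0.13 between d3 and d6. Utf1 ranged from -0.35 to 0.20 in Carma3xpA/+ from d0 to d3 (0.23 with weights), from -0.31 to 0.0070 at that step in wild type, and from -0.15 to 0.14 in wild type from d6 to d10 (0.011 with quantile normalization, 0.077 with weights), and its genotype difference moved by -0.19 to 0.35 between d0 and d3.

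Replicate numbers did not pair the samples: in 0 of 10 comparisons did every same-numbered pair correlate above 0.1 in its deviations, with r from -0.169 to 0.24. The replicate block gave 2 calls in place of 3 at d0, with L1td1 lost (limma adjusted p = 0.0644), and 2 in place of 3 between d0 and d3, with Dppa4 lost (0.0510). Depth is unknown, so counting error of low values, Tcl1 above all, cannot be set apart.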

Other observations

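The tested genes that flank the 7 numbered 12. Of these, 2, 1, 3 and 2 were called between genotypes from d0 to d10, Morc1 among them on each day. Over all genes tested, 18.8%, 6.47%, 7.78% and 10.9% were called. At d0 Glrx5, 173.8 kb from Tcl1, was higher in Carma3xpA/+ by 0.61 (limma adjusted p = 0.00096). At d6 Nkx6-2, 361.0 kb from Utf1, and D430019H16Rik, 231.1 kb from Tcl1, were both lower by 0.64 on the log2 scale. At d10 Adam8, 33.8 kb from Utf1, was lower by 0.57. The 7 genes themselves, where called at d6 and d10, were higher.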
